A study of Mus musculus with 7 samples.

Results

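Thymic epithelial genes beyond the keratins were examined in 2 fat depots of the mouse. The genes were Psmb11, Tbata, Ly75, Epcam, Cldn4 and Enpep, 6 of the 9294 genes measured, chosen from a list of genes known for their expression in thymic cortical or medullary epithelium. Each of the 6 had 1 probe with a single gene symbol. The thymus is built on epithelial cells. Those of its cortex present peptides that decide which immature T cells survive, and those of its medulla display tissue antigens so that self-reactive T cells are removed or diverted. The transcription factor Foxn1 is required for both kinds of cell to form in the mouse. White fat has no thymic epithelium of its own, while some of the 6 genes are also used elsewhere, Ly75 by dendritic cells, Epcam and Cldn4 by many epithelia and Enpep by kidney and by cells of small vessels.

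Expression was measured on Affymetrix arrays in paracardial fat, the fat beside the heart, with 4 arrays, and in intra-abdominal fat with 3 arrays. All samples came from wild-type male C57 mice with no treatment named, and the labels give no age. Replicates are called biological in the labels, but no label ties them to separate animals, and the p-values cover only the spread among these samples, which may be technical. Values of single arrays are listed in the order of the replicate numbers. All values are deposited log2 values, and differences are paracardial minus intra-abdominal fat on that scale, not calibrated folds.

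Some arrays stood apart. The median over all probes lay between 6.005 and 6.37 on paracardial and between 5.99 and 6.12 on intra-abdominal arrays. Paracardial array 4 and intra-abdominal array 3 had the highest maximum (19.93, against 19.81 to 19.84 on the other 5). Adipocyte markers, which define fat, were low on paracardial arrays 1 and 2, where the mean of 8 measured markers was 6.22 and 6.31, against 10.3 and 10.9 on paracardial arrays 3 and 4 and 14.9 to 16.3 in intra-abdominal fat. In whole tissue, fewer cells of a type and less RNA per cell cannot be told apart.

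Of the 6 genes, 3 were higher in paracardial fat at a limma adjusted p under 0.05, the threshold used throughout (Psmb11, Ly75 and Tbata), and 3 did not pass (Epcam, Cldn4 and Enpep). Over all 9294 genes 9.16% passed, 6.25% as higher and 2.91% as lower. These are 581 higher and 270 lower genes, a balance that turned to 436 and 474 with quantile normalization applied again and to 453 and 571 with cyclic loess. The depots did not overlap for any of the 6, with 5 higher on every paracardial array and Enpep lower on every paracardial array. Over all genes the depots did not overlap in 26.7%, with 18.0% higher and 8.78% lower. All 6 had an unadjusted p under 0.05, which 24.4% of all genes reached.

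**Figure D1:**
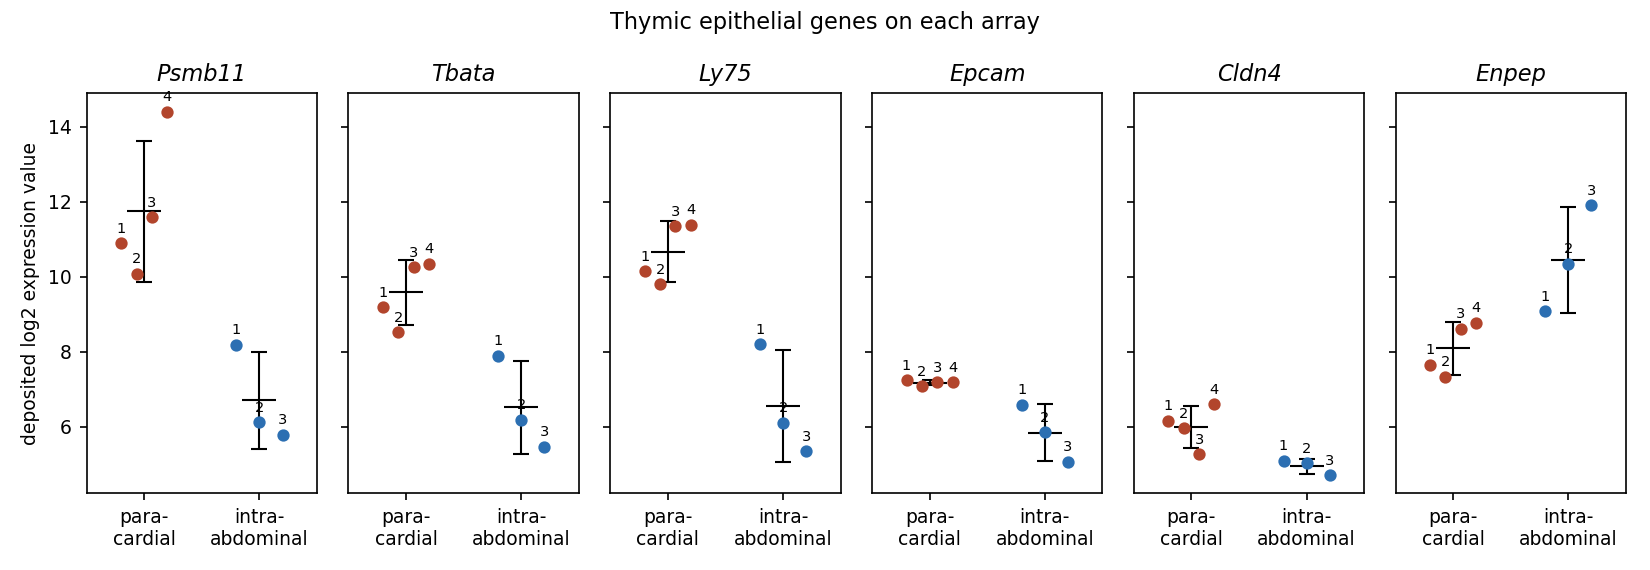
Deposited log2 values of the 6 genes on each array, with paracardial fat in red and intra-abdominal fat in blue, each point numbered by its replicate, and bars giving mean and SD (n = 4 and n = 3). Psmb11, Tbata, Ly75, Epcam and Cldn4 lie higher on all 4 paracardial arrays and Enpep lies lower, with the widest gap between depots for Psmb11 and the narrowest for Cldn4.

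Psmb11 encodes beta5t, the catalytic subunit that marks the thymoproteasome of cortical epithelium and that mice need for a normal set of CD8 T cells. Its log2 value was 10.90, 10.08, 11.59 and 14.40 in paracardial fat, and 8.19, 6.12 and 5.79 in intra-abdominal fat. Paracardial array 4 was the highest, intra-abdominal array 1 was the highest of its depot, and a gap of 1.89 separated the depots. The means were 11.74 ± 1.88 (SD, n = 4) and 6.70 ± 1.30 (SD, n = 3). The difference, 5.04 ± 1.11 (SE; 95% confidence interval 2.38 to 7.70), ranked 29th from the highest of all 9294 genes, with a limma adjusted p of 0.040. A two-sided exact permutation test over the 35 splits of the arrays gave p = 0.0286, the smallest that 4 arrays against 3 allow. The call of Psmb11 held when paracardial array 4 was left out (4.15, adjusted p = 0.041) and when intra-abdominal array 1 was (5.79, 0.048). It did not pass without paracardial array 1 (0.085), 2 (0.057) or 3 (0.091) or without intra-abdominal array 2 (0.148) or 3 (0.0996).

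Ly75, also called DEC-205 or CD205, is a surface receptor that takes up antigen and is found on cortical thymic epithelium and on dendritic cells. Its log2 value was 10.14, 9.80, 11.35 and 11.39 in paracardial fat, and 8.20, 6.11 and 5.34 in intra-abdominal fat. Paracardial arrays 3 and 4 were nearly equal and above arrays 1 and 2, and intra-abdominal array 1 was again the nearest of its depot to the paracardial arrays. The means were 10.67 ± 0.82 (SD, n = 4) and 6.55 ± 1.48 (SD, n = 3), and the difference was 4.12 ± 0.76 (SE; 95% confidence interval 2.30 to 5.94; limma adjusted p = 0.024; two-sided exact permutation p = 0.0286). Ly75 had the lowest adjusted p of the 6 genes. Its call held without intra-abdominal array 1 (4.95, 0.014) or 3 (3.51, 0.049). It ended without paracardial array 1 (0.065), 2 (0.052), 3 (0.065) or 4 (0.058) and without intra-abdominal array 2 (0.104).

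Tbata, also known as Spatial, a gene of the thymic stroma that is active in brain and testis as well, had the smallest difference of the 3 that passed. Its log2 value was 9.19, 8.53, 10.26 and 10.34 in paracardial fat, and 7.90, 6.185 and 5.46 in intra-abdominal fat. The order of the 7 arrays was the same as for Psmb11 and Ly75, and paracardial array 2 and intra-abdominal array 1 were 0.63 apart. The means were 9.58 ± 0.87 (SD, n = 4) and 6.52 ± 1.25 (SD, n = 3), and the difference was 3.07 ± 0.70 (SE; 95% confidence interval 1.39 to 4.75; limma adjusted p = 0.045; two-sided exact permutation p = 0.0286). Of the 7 fits with an array removed, the call held in 1, from which intra-abdominal array 1 was missing (3.76, 0.029). The adjusted p was 0.101, 0.062, 0.109 and 0.094 without paracardial arrays 1 to 4, and 0.162 and 0.0985 without intra-abdominal arrays 2 and 3.

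The stretch around the transcription start is shown for the 3 genes that passed and for Enpep, which differed in the other direction. Each is 300 bases long, 250 before and 50 after the start, from RefSeq on GRCm38.p6 and printed 5′ to 3′ on the gene's strand. Capitals mark GACGC, the core that Foxn1 binds in the mouse, or its reverse complement GCGTC. The stretches are chr14:54625060-54625359 (plus strand) for Psmb11, chr10:61171714-61172013 (plus strand) for Tbata, chr2:60383224-60383523 (minus strand) for Ly75 and chr3:129332700-129332999 (minus strand) for Enpep.
Psmb11: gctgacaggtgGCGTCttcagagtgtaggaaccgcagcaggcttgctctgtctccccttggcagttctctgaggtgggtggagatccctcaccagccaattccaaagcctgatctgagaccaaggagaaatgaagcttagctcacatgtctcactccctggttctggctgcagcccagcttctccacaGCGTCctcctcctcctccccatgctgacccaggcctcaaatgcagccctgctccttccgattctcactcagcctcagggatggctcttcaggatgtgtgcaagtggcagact
Tbata: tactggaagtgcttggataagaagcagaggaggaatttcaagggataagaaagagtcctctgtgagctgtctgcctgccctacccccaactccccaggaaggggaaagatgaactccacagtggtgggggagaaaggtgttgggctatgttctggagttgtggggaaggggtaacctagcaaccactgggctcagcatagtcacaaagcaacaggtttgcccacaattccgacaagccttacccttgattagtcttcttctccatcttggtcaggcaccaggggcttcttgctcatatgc
Ly75: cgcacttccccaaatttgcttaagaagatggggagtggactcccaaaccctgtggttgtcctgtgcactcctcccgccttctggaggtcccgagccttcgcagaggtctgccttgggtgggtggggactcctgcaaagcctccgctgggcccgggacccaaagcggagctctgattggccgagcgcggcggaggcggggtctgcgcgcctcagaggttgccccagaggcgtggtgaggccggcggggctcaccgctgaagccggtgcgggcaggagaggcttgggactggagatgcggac
Enpep: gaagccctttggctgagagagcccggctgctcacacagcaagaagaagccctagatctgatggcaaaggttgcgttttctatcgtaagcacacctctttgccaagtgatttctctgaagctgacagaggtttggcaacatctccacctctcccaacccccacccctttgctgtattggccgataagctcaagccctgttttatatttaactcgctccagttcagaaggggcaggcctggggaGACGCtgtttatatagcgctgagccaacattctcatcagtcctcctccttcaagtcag

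The Foxn1 core was present in 2 of the 6 promoters. Psmb11 held 2 copies, both as GCGTC and starting 239 and 62 bases before the start, and Enpep held 1 copy as GACGC, 8 bases before the start. These letters were not in the windows of Tbata, Ly75, Epcam and Cldn4. Of all 32851 promoter windows of the same length, 27.2% held the core on either strand and 8.15% held at least 2 copies. None of the 3 copies overlapped a match to the CCAAT box, none a match to the TATA box (TATAAA) and none a match to the GC box (GGGCGG), each searched on both strands. The GC content was 57.3% for Psmb11, 51.7% for Tbata, 67.0% for Ly75 and 51.3% for Enpep. Foxn1 itself had log2 values of 5.30, 5.20, 5.70 and 6.80 in paracardial fat, and 4.94, 4.81 and 4.36 in intra-abdominal fat. These do not overlap, and the difference was 1.05 ± 0.42 (SE), which did not pass (limma adjusted p = 0.190). Without paracardial array 4, the highest, the difference of Foxn1 was 0.70, and over the 5 arrays of the lower maximum it was 0.52.

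Epcam and Cldn4, listed here under medullary epithelium, differed by less than Psmb11, Ly75 and Tbata. The keratin Krt5 of the same list differed by 4.42. Epcam, a surface adhesion molecule of epithelial cells that is used to sort thymic epithelium, had log2 values of 7.24, 7.07, 7.18 and 7.18 in paracardial fat, and 6.59, 5.86 and 5.07 in intra-abdominal fat. The paracardial arrays were nearly equal while the intra-abdominal arrays ran from 5.07 to 6.59, and the depots did not overlap. The SD was 0.071 (n = 4) in paracardial fat, smaller than in all but 4.57% of genes, against 0.76 (n = 3) in intra-abdominal fat. The difference was 1.33 ± 0.35 (SE; 95% confidence interval 0.49 to 2.18), and the limma adjusted p of 0.066 missed the threshold (two-sided exact permutation p = 0.0286). Without intra-abdominal array 1 Epcam passed (1.71, 0.030), and its adjusted p was between 0.077 and 0.193 in the other 6 fits that left out an array.

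Cldn4, a claudin of tight junctions that marks a lineage of medullary epithelium, had log2 values of 6.16, 5.96, 5.27 and 6.60 in paracardial fat, and 5.09, 5.03 and 4.71 in intra-abdominal fat. Paracardial array 3, the lowest of its depot, lay 0.18 above intra-abdominal array 1. The intra-abdominal values were low, below the medians over all probes on those arrays (5.99 to 6.12). The difference was 1.05 ± 0.33 (SE; 95% confidence interval 0.26 to 1.85; limma adjusted p = 0.105). The two-sided exact permutation test gave p = 0.0571, since another split of the arrays gave a larger difference of the opposite sign. Cldn4 did not pass whichever array was left out (adjusted p 0.056 to 0.245). Cldn4 differed from the other 5 genes in having paracardial array 3 as the lowest of its depot.

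Enpep ran the other way. It encodes glutamyl aminopeptidase, known in mouse immunology as Ly51 or BP-1, the surface marker by which cortical is told from medullary epithelium, and an enzyme that trims angiotensin II. Its log2 value was 7.65, 7.33, 8.61 and 8.77 in paracardial fat, and 9.07, 10.35 and 11.91 in intra-abdominal fat. Every paracardial array was below every intra-abdominal array, by 0.30 at the nearest pair, and intra-abdominal array 3 was the highest. The means were 8.09 ± 0.71 (SD, n = 4) and 10.44 ± 1.42 (SD, n = 3), and the difference was -2.35 ± 0.71 (SE; 95% confidence interval -4.05 to -0.66; limma adjusted p = 0.094; two-sided exact permutation p = 0.0286). Enpep passed without intra-abdominal array 1 (-3.04, 0.048), and its adjusted p was between 0.119 and 0.232 in the other 6 fits that left out an array. It thus stood with a sign opposite to that of Psmb11, Ly75 and Tbata, the other cortical genes of the 6.

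The 5 genes with higher values in paracardial fat shared an order in the other depot. Intra-abdominal array 1 lay nearest to the paracardial arrays and intra-abdominal array 3 farthest from them for all 6 genes, Enpep included. Among the 4 paracardial arrays, array 4 was the highest for Psmb11, Tbata, Ly75, Cldn4 and Enpep, and array 1 for Epcam. From high to low their order was 4, 3, 1 and 2 for Psmb11, Tbata, Ly75 and Enpep alike, although Enpep had the opposite sign between depots. Epcam and Cldn4 had other orders. Likeness of profiles was measured as the root mean square difference over the 7 arrays, each gene taken as its deviation from its own mean, in log2 units. The smallest value among the 15 pairs was 0.49, between Epcam and Cldn4, followed by 0.54 between Tbata and Ly75 and 0.98 between Psmb11 and Ly75. Psmb11 and Enpep were the farthest apart, at 4.02. Genes of small range are near each other by this measure whatever their pattern, which applies to Epcam (range 2.18) and Cldn4 (range 1.89).

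Among 5712 other named genes below the ceiling, the nearest to Psmb11 were the histone variant gene H2ax (0.42), the T cell receptor segment Trbv12-1 (0.43) and an immunoglobulin kappa variable segment (0.46), where the median gene was 2.86 away. Nearest to Ly75 were Dsp, the desmosome protein desmoplakin (0.27), the recombinase gene Rag2 (0.32) and the membrane protein gene Itm2a (0.33), with a median of 2.26. Nearest to Tbata were Tapt1 (0.34), Fcgbp (0.36) and the segment Traj35 (0.41), with a median of 1.77. The genes nearest to Epcam were Scnn1a, a subunit of the epithelial sodium channel (0.24), the segment Traj54 (0.24) and the histone gene H2ac12 (0.24), with a median of 0.90. Enpep had Colec12, a scavenger receptor (0.18), the transporter Abca9 (0.19) and the vitamin K reductase Vkorc1 (0.21) nearest, with a median of 1.52. These values describe 7 arrays that share depot and RNA, and Cldn4, with a range under 2, was not ranked.

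**Figure D2:**
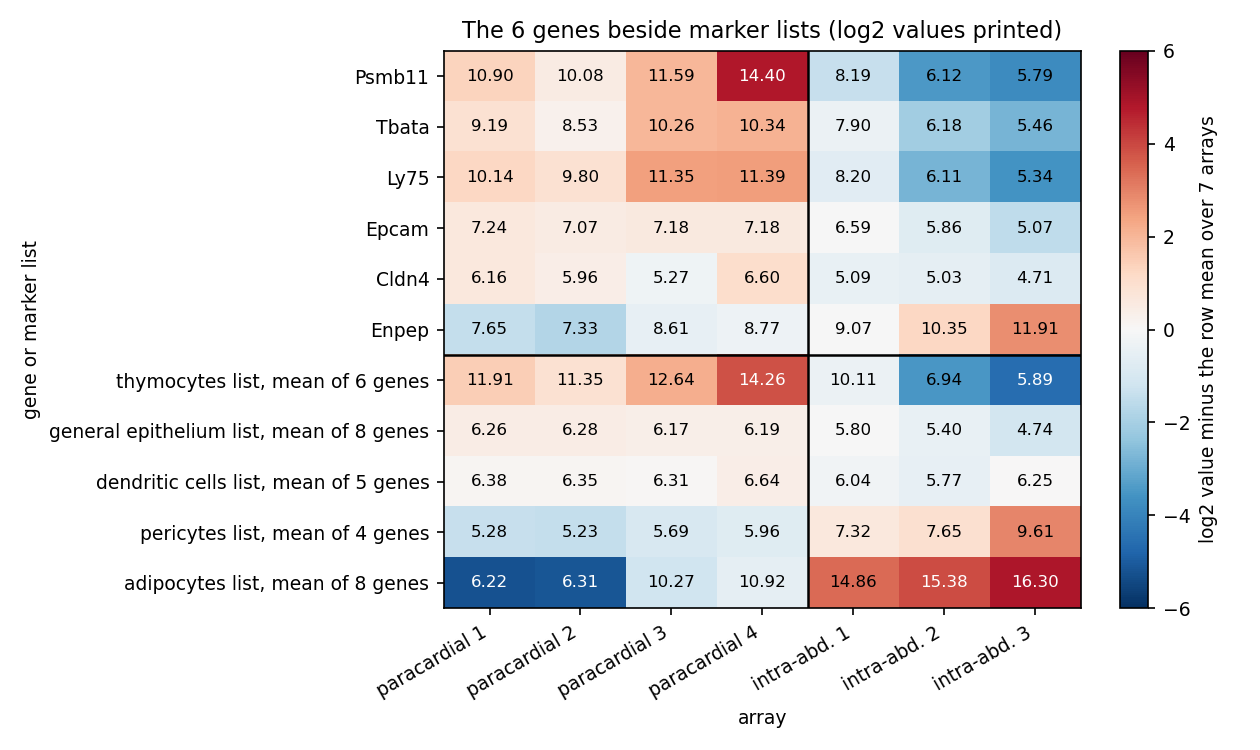
Log2 values of the 6 genes and the mean log2 values of 5 marker lists on each array (columns, paracardial arrays left of the line), coloured by the deviation from the row's mean over the 7 arrays. The thymocyte list is highest on paracardial array 4 (14.26) and lowest on intra-abdominal array 3 (5.89), as is Psmb11 (14.40 and 5.79), while Enpep and the pericyte and adipocyte lists are highest on intra-abdominal array 3.

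Among other genes of thymic epithelium, keratins carried the differences that passed. Of 14 listed genes of cortical epithelium 11 were measured, 4 of them among the 6 genes described. Of the 11, 5 were higher, none was lower and 6 did not pass, with a median difference of 1.63. On every paracardial array 6 of the 11 were higher and 2, Enpep and Kitl, were lower, against 18.0% and 8.78% of all genes. Without the 4 that are among the 6 genes described, 2 of 7 passed as higher and the median difference was 0.92. The median over all genes was 0.13 (-0.024 once each array was centred on its median, a shift of all genes alike). Besides Psmb11, Ly75 and Tbata the keratins Krt18 (6.06 ± 0.82, difference ± SE, limma adjusted p = 0.012) and Krt8 (5.08 ± 0.59, 0.0090) were higher. Krt8 passed whichever array was left out, and Krt18 in every such fit but that without intra-abdominal array 2 (0.055). The rest of the list held secreted and membrane signals to immature T cells and a protease, and none passed. Among these were the Notch ligand Dll4 (-0.90, 0.311), the chemokine Cxcl12 (0.48, 0.608), the Kit ligand Kitl (-1.09, 0.162), the surface protein Cd83 (1.63, 0.117) and the cysteine protease Ctsl (0.92, 0.542), named after their values were seen. Prss16, Ccl25 and Il7 were not analysed here.

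Of 17 listed genes of medullary epithelium 6 were measured, with a median difference of 1.24. Of these 5 did not pass and 1 was higher, against 6.25% of all genes. It was the basal keratin Krt5 (4.42 ± 0.74, difference ± SE, limma adjusted p = 0.019), whose call ended without paracardial array 1 (0.064) or 2 (0.056) and without intra-abdominal array 2 (0.083). The depots did not overlap for any of these 6, all higher in paracardial fat, as for 18.0% of all genes. Epcam and Cldn4 are among the 6, and the other 4 had a median difference of 1.30. These included Fezf2, a regulator of tissue antigen expression (1.14 ± 0.31, 0.069), and, named after their values were seen, the keratin Krt14 (1.46, 0.101) and the transcription factor Spib (0.58, 0.161). Aire was not analysed here. Of 12 transcription factors of thymic epithelium 4 were measured, and none passed by limma, with Fezf2 the largest and 2 of the 4, Foxn1 and Fezf2, at an unadjusted p under 0.05.

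**Figure D3:**
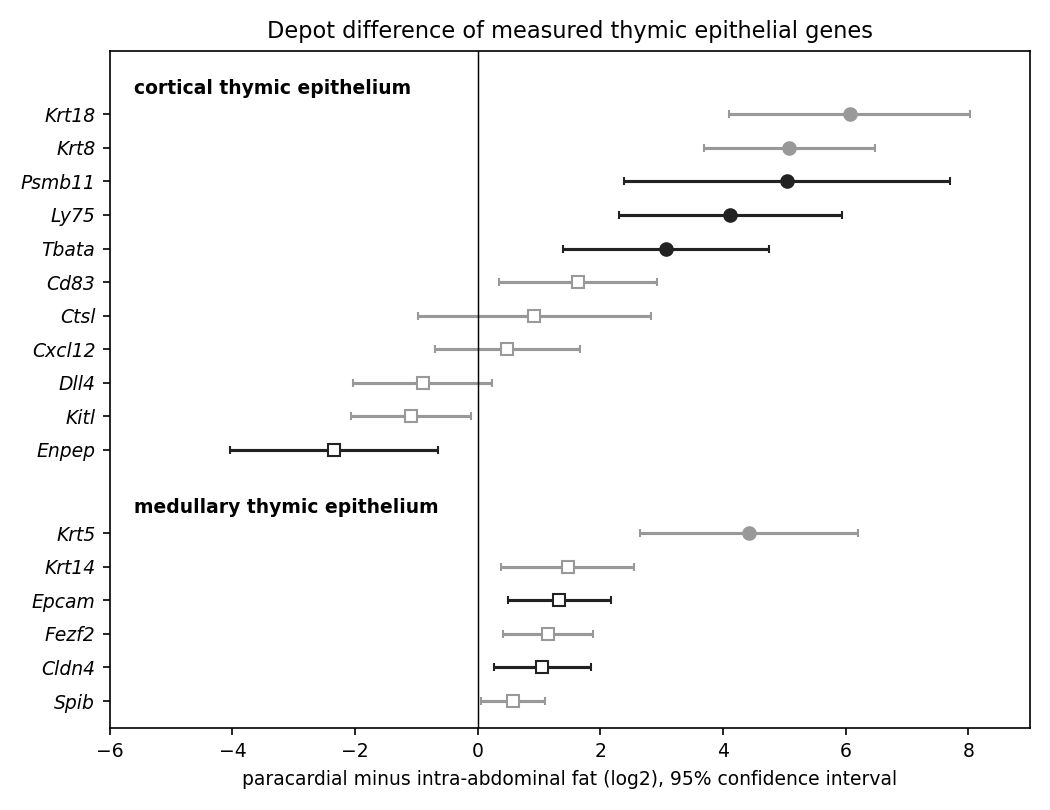
Difference between paracardial and intra-abdominal fat (log2, x axis) with 95% confidence intervals for the measured genes of the cortical and medullary lists, the 6 genes in black and the others in grey, filled where the limma adjusted p was under 0.05. Psmb11, Ly75 and Tbata lie to the right with Krt8, Krt18 and Krt5, and Enpep has the lowest difference (-2.35).

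Of 16 listed genes of epithelia in general, 8 were measured, with a median difference of 0.49. Of these 7 did not pass and 1 was higher, against 6.25% of all genes. The gene that rose was Dsp (4.36 ± 0.71, difference ± SE, limma adjusted p = 0.018), which passed in 4 of 7 fits that left out an array, and not without paracardial array 1 (0.057) or 3 (0.052) or intra-abdominal array 2 (0.080). Cdh1, the epithelial cadherin, had log2 values of 7.05, 6.84, 7.50 and 7.88 in paracardial fat, and 7.11, 6.04 and 4.58 in intra-abdominal fat. Intra-abdominal array 1 lay within the paracardial range, and the difference of 1.41 ± 0.60 did not pass (0.214). Without intra-abdominal array 3 the difference of Cdh1 was 0.74, and over the 5 arrays of the lower maximum 0.55. The mean of the 8 genes was 6.17 to 6.28 in paracardial and 4.74 to 5.80 in intra-abdominal fat. Mesothelial genes, of which 3 of 6 were measured, had no gene past the threshold by limma and none at an unadjusted p under 0.05 (largest difference Upk1b, -0.88, 0.479, with -0.25 without intra-abdominal array 2 and -1.31 without paracardial array 3), and their mean overlapped between depots (5.46 to 6.28 and 5.86 to 6.75). Of the 2 airway genes measured none passed by limma, 1 having an unadjusted p under 0.05 (Cyp2f2, -2.54, 0.147). Its difference was -3.69 without intra-abdominal array 3 (0.012) and -1.69 without intra-abdominal array 1 (0.300). The parathyroid hormone gene Pth did not pass either (1.65, 0.362, but 2.49 and 0.046 without paracardial array 4), and the cardiomyocyte list was not analysed here.

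Markers of thymocytes, the immature T cells of the thymus, differed on the same arrays as Psmb11, Ly75 and Tbata. Of 14 listed 6 were measured, 3 were higher and 3 did not pass, with a median difference of 5.16. All 6 were higher in paracardial fat with no overlap between depots, as were 18.0% of all genes. The mean of the 6 ran from 11.4 to 14.3 in paracardial fat and from 5.89 to 10.1 in intra-abdominal fat, with paracardial array 4 the highest and, in its depot, intra-abdominal array 1 the highest. No marker was at 0 on this scale, which does not show that each was detected. The 5th percentile over all probes lay between 3.99 and 4.44 on the 7 arrays. The markers that passed were Dntt (7.05 ± 1.48, difference ± SE, limma adjusted p = 0.034), Rag2 (4.65 ± 0.81, 0.021) and Cd3d (4.09 ± 0.98, 0.0497). Dntt and Cd3d passed in 1 of 7 fits that left out an array, without intra-abdominal array 1 (0.014 and 0.041), with 0.134 and 0.173 without intra-abdominal array 2. Rag2 passed in 4, and not without paracardial array 1 (0.060) or 3 (0.059) or intra-abdominal array 2 (0.089). The part of these cells in the differences of the 6 genes was not tested.

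Dendritic cells also use Ly75. Of 9 listed dendritic cell genes 5 were measured, with a median difference of 0.24. Of these 4 did not pass and 1 was higher, against 6.25% of all genes. It was the chemokine receptor Ccr7, which mature thymocytes carry too (2.04 ± 0.48, difference ± SE, limma adjusted p = 0.048), and it passed in 1 of 7 fits that left out an array (0.022 without intra-abdominal array 1, with 0.173 without intra-abdominal array 2). Of the 5 genes 3 had a positive difference. The integrin gene Itgax, named after its values were seen, differed by -0.51. It was 5.95 to 6.84 in paracardial and 5.52 to 8.64 in intra-abdominal fat. The mean of the list was 6.31 to 6.64 and 5.77 to 6.25 in the same order, and the part of these cells in the difference of Ly75 was not tested. Of 9 genes of B cells and lymph nodes 6 were measured and none passed, with none at an unadjusted p under 0.05 (largest Ms4a1, 1.49, 0.209).

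Each measured pericyte and adipocyte gene had a negative difference, the sign of Enpep. Of 6 pericyte genes 4 were measured, with a median difference of -2.23. Of these 3 did not pass and 1 was lower, against 2.91% of all genes. It was the adhesion molecule Mcam (-5.80 ± 0.67, difference ± SE, limma adjusted p = 0.0090), which passed whichever array was left out. The mean of the 4 ran from 5.23 to 5.96 in paracardial and from 7.32 to 9.61 in intra-abdominal fat, with intra-abdominal array 3 the highest, as for Enpep. Of 10 adipocyte genes 8 were measured, 5 were lower and 3 did not pass, with a median difference of -7.27. The adipocyte mean was lowest on paracardial arrays 1 and 2, where Enpep was lowest too, and highest on intra-abdominal array 3. Within paracardial fat this was not particular to Enpep. Psmb11, Ly75, Tbata and the thymocyte mean were also lower on paracardial arrays 1 and 2 than on 3 and 4. Lep, the leptin gene (-8.53), and the glycerol channel gene Aqp7 (-7.35) passed whichever array was left out. Cidec, a lipid droplet gene (-7.61, 0.029), passed in 1 such fit (0.032 without paracardial array 4), and the lipase gene Pnpla2 (-7.19, 0.029) in 2 (0.049 and 0.032 without paracardial arrays 3 and 4), with 0.105 and 0.114 for the pair without intra-abdominal array 2. The part of these cells in the difference of Enpep was not tested.

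Paralogues of the 6 genes gave no call. Of 14 listed 7 were measured, none passed by limma, and 4 had an unadjusted p under 0.05, with a median difference of 0.11. Among these 4 was Anpep, an aminopeptidase of the same family as Enpep, whose difference of -1.92 ± 0.69 (SE) had the sign of Enpep (0.145) and is named after its values were seen. Psmb8, the interferon-induced counterpart of Psmb11 in the immunoproteasome, had log2 values of 7.22, 7.19, 8.22 and 9.72 in paracardial fat, and 6.25, 5.999 and 6.79 in intra-abdominal fat. The depots did not overlap, and the difference of 1.74 ± 0.65 (SE) did not pass (0.157). Of 6 measured genes with a Psmb symbol Psmb11 was the 1 that passed. Of 9 claudin genes with a value none passed by limma, 4 had an unadjusted p under 0.05, and their differences ran from -3.01 for Cldn5, the claudin of vessel walls (0.145), to 1.05 for Cldn4. For Cldn5 intra-abdominal array 3 read 11.41 against 6.87 and 7.26 on the other two, and without it the difference of Cldn5 was -1.57 (0.045). The depots overlapped for 6 of the 9 claudins and not for Cldn4, Cldn5 and Cldn22, where 26.7% of all genes showed no overlap. Psmb5, a close relative of Psmb11, was not analysed here.

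The 6 differences kept their sign in each of the 20 alternative settings tried (19 for Cldn4), while the calls did not. Psmb11 passed in 12, Ly75 in 12, Tbata in 10, Enpep in 4, Epcam in 3 and Cldn4 in 1. Within the 5 arrays of the lower maximum, Psmb11, Ly75 and Tbata differed by 3.70, 3.27 and 2.29. Epcam, Cldn4 and Enpep differed there by 0.94, 0.74 and -1.85. None of the 6 passed by limma, with 5 of 6 at an unadjusted p under 0.05, while 936 of all genes (10.1%) passed. Between paracardial array 4 and intra-abdominal array 3, a pair with no replicate, the differences of the 6 were 8.61, 6.05, 4.88, 2.12, 1.89 and -3.13 in the same order. Without paracardial arrays 1 and 2, where adipocyte markers were lowest, the differences were 6.29 for Psmb11, 4.82 for Ly75 and 3.78 for Tbata. No gene of the 6 passed by limma there, 3 of 6 had an unadjusted p under 0.05, and 1 of all 9294 genes passed.

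**Figure D4:**
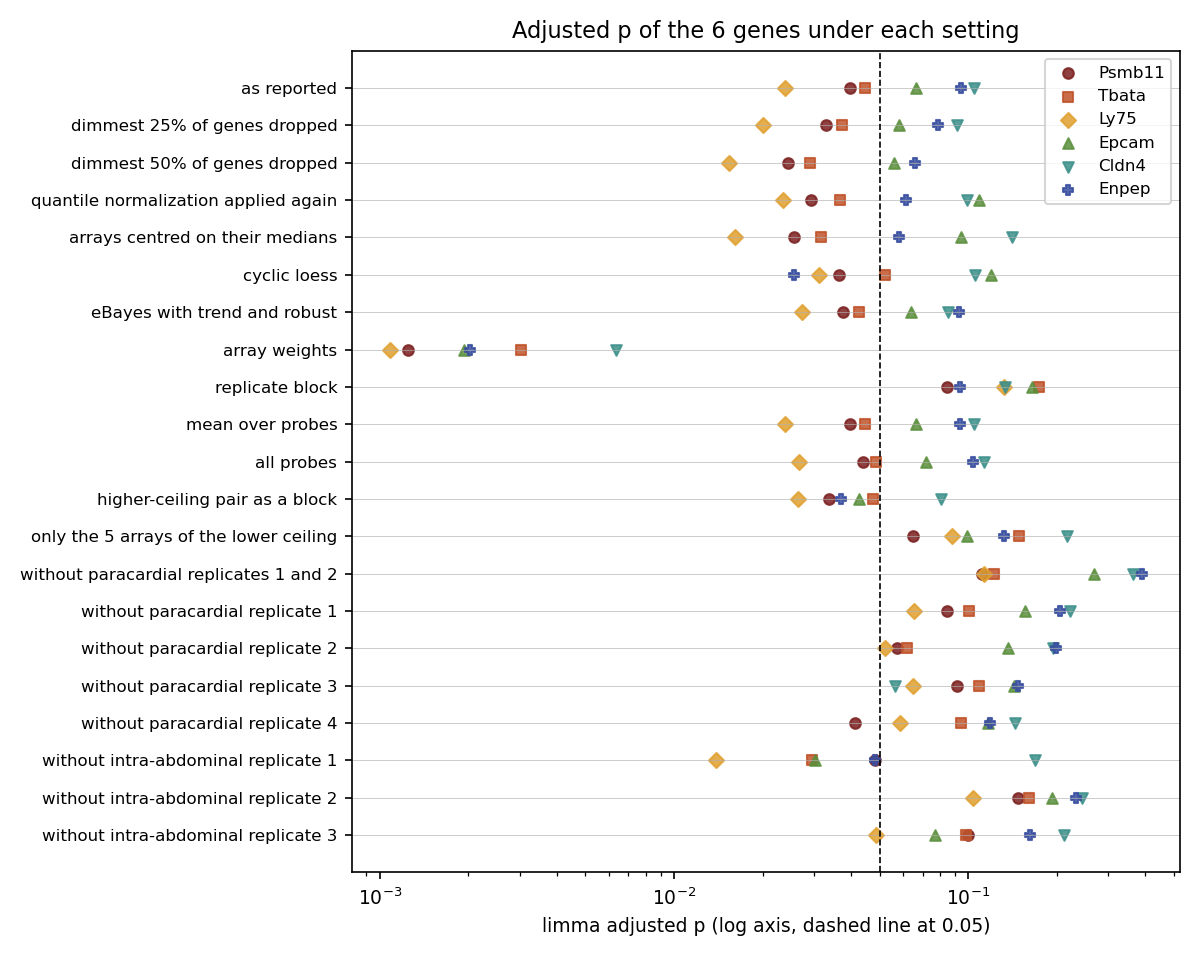
Limma adjusted p (log axis) of the 6 genes as reported and under each alternative, with a dashed line at 0.05. Psmb11, Tbata and Ly75 lie left of the line as reported (0.040, 0.045 and 0.024) and right of it when paracardial array 1, 2 or 3 or intra-abdominal array 2 is left out, and all 6 genes lie left of it with array weights.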

How the data were processed

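The deposited values are log2 expression, 1 for each probe on each array. The submitters' processing notes name RMA and Affymetrix Expression Console. The sources used here give no version, background correction or genome build. Scale, centring and the cause of the upper limit of the values stay unknown. Scanner files and detection calls were not used here, and precision is limited by how many arrays there are.

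Of 11949 probes 9352 had exactly 1 distinct symbol in the platform annotation, 522 carried more than 1 and 2075 carried no symbol. Entrez identifiers served to update symbols (5789 probes matched, 188 symbols changed, RefSeq names of GRCm38.p6), and the probe with the highest mean was kept for 52 genes with more than 1, which left 9294 genes. No gene was dropped for low signal, and all 6 genes described entered the fit.

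Depots were compared with limma 3.58.1 (lmFit, then eBayes, two-sided, in R 4.3.3) over 7 arrays without covariates. P-values were adjusted by Benjamini-Hochberg over all genes at 0.05, and the fit had 5 residual and 1.68 prior degrees of freedom. Exact permutation tests used all 35 splits. Lists were described by counts, medians and mean log2 values, with no test. The genes, lists and alternatives were chosen with earlier results of these data known. Genes named were the 6, the members of each list past the threshold (up to 4) or the largest where none passed, Foxn1, Cdh1 and paralogues where measured, and the 3 nearest profiles, leaving out gene models, pseudogenes and genes within 0.1 of an array's maximum on all arrays of a depot. Alternatives were filters of the dimmest 25% or 50%, renormalization, centring, cyclic loess, trend and robust fitting, array weights, blocks, probe summaries and left-out arrays. Exact tests ran in numpy 2.4.6, tables in pandas 2.3.3 and figures in matplotlib 3.10.9, under Python 3.11.15.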

Additional observations from a re-analysis of the deposited data

Results flagged for a closer look

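Of 41 genes and list means checked over the 4 paracardial arrays, 1 had a sample far from the others, and chance alone marks about 1 in 20 such groups. It was the mesothelial gene Upk1b, at 8.44 on paracardial array 3 against 6.68, 6.71 and 6.70 on arrays 1, 2 and 4. None of the 6 thymic epithelial genes was marked in this way.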

How the results depend on the processing

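The differences of the 6 genes kept their sign throughout, and the calls depended on which arrays entered. With each array left out in turn, the difference ran from 4.15 to 5.79 for Psmb11, 2.54 to 3.76 for Tbata, 3.51 to 4.95 for Ly75, 0.95 to 1.71 for Epcam, 0.85 to 1.30 for Cldn4 and -3.04 to -1.62 for Enpep. Of the 6 genes 0 to 5 passed in those fits, of all genes 185 to 833 (851 as reported), of the cortical list 1 to 6 (median difference 1.24 to 1.87) and of the medullary list 0 to 2 (0.96 to 1.38). The lowest count over all genes was without intra-abdominal array 2, with 196, 338 and 394 without paracardial arrays 1, 2 and 3.

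The labels do not say whether same-numbered samples of the 2 depots belong together. The deviations of same-numbered arrays from their depot means correlated at 0.048, 0.047 and -0.500. These values cannot decide it, since arrays of different numbers were not compared. The fit with a replicate block sets paracardial array 4 aside, which has no partner, and gave 4.15 for Psmb11, 2.81 for Tbata and 3.88 for Ly75. In it 0 of the 6 genes, 0 of both lists and 0 of all genes passed by limma (2134 of all genes at an unadjusted p under 0.05). Array weights, whose estimation stopped before convergence, gave 1.26 for Epcam, 0.98 for Cldn4 and -2.53 for Enpep and passed all 6 genes, 10 cortical, 6 medullary and 3614 of all genes. With the arrays of higher maximum as a block, Epcam was 1.29 and Enpep -2.23, and 5 of the 6 genes, 2 medullary and 1654 of all genes passed. Over the 5 other arrays alone, 0 of the 6 genes, 2 cortical, 0 medullary and 936 of all genes were past the threshold. The medullary median was 0.92 there, and Psmb11 was 3.70, Tbata 2.29 and Ly75 3.27. Without paracardial arrays 1 and 2 the values were 6.29, 3.78 and 4.82, with 0 of the 6, 0 of either list and 1 of all genes past it (1751 at an unadjusted p under 0.05). Cyclic loess gave 2.78 for Tbata, which no longer passed, and -2.77 for Enpep, which then did. Dropping the dimmest 50% of genes left 2 medullary genes, with a median of 2.87, and gave no value for Cldn4. The cause of these changes was not tested. The other alternatives left the calls of the 6 genes as reported.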

Other observations

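Many deposited values recur exactly between arrays. Of 9294 genes, 1769 (19.0%) had the same value on at least 2 of the 7 arrays. Relb, an NF-kappaB subunit needed by medullary thymic epithelium in the mouse, was the only gene with 1 value on all 7 (5.952), and its fitted difference rests on that repeated value. Spib, another regulator of medullary epithelium, had 5 distinct values. Each of the 6 thymic epithelial genes had 7 distinct values.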
